A study of Mus musculus with 16 samples.

Results

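Levels of 10 genes of the cornified layer were followed in mouse dorsal skin: the 7 fused S100 genes Flg, Flg2, Hrnr, Rptn, Tchh, Tchhl1 and Crnn, and 3 genes of envelope proteins, Lor, Ivl and Kprp. They were taken by symbol from a list of 10 among the 55359 gene IDs counted. All 10 passed the filter on low counts, which left 17531 genes in the test. The skin came from male mice aged 8 weeks, and all were labelled telogen, when hair follicles rest. Wild-type mice (WT) and mice knocked out for both TNF receptor genes, Tnfrsf1a and Tnfrsf1b (KO), were each sampled untreated (control) or after what the labels call 3xUVB (UVB). The labels give no dose, interval or time of sampling, no strain, and no account of which exons the knockout alleles lack. Each of the 4 groups held 4 libraries, numbered 1 to 4 as in the labels. Nothing in the labels says whether each library is a separate animal, so p-values measure only the spread between libraries.

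The cornified layer is the dead outer sheet of the epidermis, in which keratin filaments are packed inside a cross-linked protein shell, the cornified envelope. Filaggrin, made as a long precursor of tandem repeats, binds keratin filaments and is later broken down to amino acids that hold water in the layer, while loricrin and involucrin are cross-linked into the shell by transglutaminases. Trichohyalin does a related job in the inner root sheath of the hair follicle, where it is cross-linked to keratin filaments. Fused S100 proteins carry a calcium-binding S100 domain ahead of their repeats, and their genes lie together in the epidermal differentiation complex.

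In the gene order of the GENCODE vM21 annotation, which belongs to another build than the files, all 10 lie on chromosome 3. Lor, Ivl and Kprp are on the minus strand, followed by Crnn, Flg2, Flg, Hrnr, Rptn, Tchh and Tchhl1 on the plus strand, with 0 protein-coding genes between consecutive fused S100 genes. RefSeq promoters (GRCm38.p6, 250 bases before to 50 after the start) were at hand for 9 of the 10. A pair of motifs was searched on both strands: TGANTCA, and TATAAA, the core promoter box bound by the basal transcription machinery. The motifs do not overlap each other. TGANTCA is looser than the AP-1 site, whose letters are TGAGTCA or TGACTCA. Among the 9 promoters only those of Lor and Ivl hold these AP-1 letters. The share of all promoters with them was not worked out. TGANTCA was found in 7 of the 9 promoters and in 7.81% of all 32851 promoters of that length, and TATAAA in 6 of the 9 and in 13.6% of all. The promoters of 6 members are printed because their genes carry the contrast of the results: Flg, Lor and Ivl rose after UVB in both genotypes, Flg2 rose in neither, and Tchh and Crnn fell in WT. Each is printed 5′ to 3′ on the gene's strand, with matches to either motif in capitals.
Flg, chr3:93273296-93273595, plus strand: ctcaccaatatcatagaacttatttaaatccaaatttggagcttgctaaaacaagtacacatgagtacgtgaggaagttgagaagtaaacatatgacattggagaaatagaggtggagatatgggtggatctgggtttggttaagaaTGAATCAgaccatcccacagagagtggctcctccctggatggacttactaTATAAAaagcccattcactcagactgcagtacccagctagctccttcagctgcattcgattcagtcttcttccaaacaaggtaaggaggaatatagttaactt
Flg2, chr3:93197023-93197322, plus strand: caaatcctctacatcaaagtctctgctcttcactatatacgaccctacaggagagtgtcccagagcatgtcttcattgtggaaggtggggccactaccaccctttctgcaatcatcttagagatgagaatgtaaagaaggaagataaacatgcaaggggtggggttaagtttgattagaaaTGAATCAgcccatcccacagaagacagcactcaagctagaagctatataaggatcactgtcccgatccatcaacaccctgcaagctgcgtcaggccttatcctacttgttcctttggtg
Crnn, chr3:93144539-93144838, plus strand: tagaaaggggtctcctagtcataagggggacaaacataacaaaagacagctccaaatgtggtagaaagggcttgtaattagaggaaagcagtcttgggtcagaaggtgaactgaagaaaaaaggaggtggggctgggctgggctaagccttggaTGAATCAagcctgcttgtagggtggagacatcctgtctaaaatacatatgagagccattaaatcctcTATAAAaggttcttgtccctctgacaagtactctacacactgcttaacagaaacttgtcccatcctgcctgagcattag
Tchh, chr3:93442080-93442379, plus strand: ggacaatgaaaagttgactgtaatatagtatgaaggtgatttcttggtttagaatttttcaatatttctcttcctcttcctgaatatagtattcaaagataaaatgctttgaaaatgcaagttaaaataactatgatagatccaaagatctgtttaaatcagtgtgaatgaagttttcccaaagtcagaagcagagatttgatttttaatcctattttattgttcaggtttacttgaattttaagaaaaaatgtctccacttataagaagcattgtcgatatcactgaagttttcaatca
Lor, chr3:92083093-92083392, minus strand: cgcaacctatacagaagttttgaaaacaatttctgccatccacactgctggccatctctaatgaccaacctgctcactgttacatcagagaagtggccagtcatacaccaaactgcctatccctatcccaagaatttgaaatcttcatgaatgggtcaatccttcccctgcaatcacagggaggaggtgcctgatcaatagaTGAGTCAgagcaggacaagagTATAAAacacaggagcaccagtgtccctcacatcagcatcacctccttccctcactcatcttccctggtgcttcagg
Ivl, chr3:92573686-92573985, minus strand: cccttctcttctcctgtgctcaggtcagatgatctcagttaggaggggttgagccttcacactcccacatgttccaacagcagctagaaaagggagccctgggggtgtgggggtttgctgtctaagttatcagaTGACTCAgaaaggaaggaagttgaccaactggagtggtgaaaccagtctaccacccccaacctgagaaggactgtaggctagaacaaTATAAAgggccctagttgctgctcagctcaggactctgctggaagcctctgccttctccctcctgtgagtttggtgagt

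The Flg promoter holds TGAATCA 103 bases before the start and TATAAA 53 bases before it. Flg2, its neighbour, holds TGAATCA 69 bases before the start and no TATAAA. In a window of 40 bases aligned on the TGANTCA match, Flg and Flg2 shared 30 bases, the most of any pair of members with a match. Tchhl1 and Ivl shared 10, the fewest. The match itself is inside the window, so its fixed letters are shared by design, and no chance level was worked out. Of those not printed, Rptn has TGATTCA 96 bases before its start, Tchhl1 has TGAATCA 87 bases before it, and Hrnr has TATAAA without TGANTCA. Lor carries TGAGTCA 48 bases before the start and Ivl TGACTCA 116 bases before it. Tchh holds neither set of letters in this window. Its annotated start falls on the letters ATG, as a start codon has, so the window may not be the true promoter. The count of 9 promoters includes it, and where Tchh transcription starts was not tested. TGAATCA or its reverse complement TGATTCA was in 5 of the 9 promoters and in 2.81% of all. This form, itself a case of TGANTCA, was noticed after the letters were read. Genes with the same letters moved in different directions: Flg rose after UVB in WT and Crnn and Tchhl1 fell.

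Levels were compared between genes as CPM (TMM-normalised counts scaled to library size) per kilobase of annotated exon. Lor, the main protein of the mature envelope by mass, had the highest level of the 10 in every group, at 1060 ± 130 CPM per kilobase in WT control and 2221 ± 382 in WT UVB (SD, n = 4). In WT control the order below it was Tchh at 165 ± 71.1, Kprp at 65.2 ± 6.63, Flg2 at 40.4 ± 4.84, Ivl at 32.8 ± 3.34, Rptn at 18.2 ± 2.84, Crnn at 14.9 ± 7.11, Tchhl1 at 13.2 ± 1.26, Hrnr at 8.81 ± 1.69 and Flg at 4.64 ± 1.06. The libraries of neighbours overlapped for Flg2 and Ivl, for Rptn and Crnn and for Crnn and Tchhl1, so those neighbours are not ordered beyond their spread. In WT UVB, Flg stood at rank 4 with 71.9 ± 9.5 CPM per kilobase, overlapping with Ivl at 115 ± 34.5, Rptn at 68.0 ± 37.6 and Hrnr at 63.7 ± 16.4, while Tchh had gone from rank 2 to rank 8 at 5.02 ± 6.05. In KO control Tchh stood at rank 5 with 19.0 ± 9.10, and Crnn and Tchhl1 at ranks 9 and 10. In KO UVB Rptn stood at rank 2 with 169 ± 115, overlapping with Kprp at 144 ± 23.0, Ivl at 126 ± 48.8, Flg at 74.8 ± 39.8, Hrnr at 69.9 ± 34.0 and Flg2 at 29.7 ± 4.71. These levels carry a limit of the repeats: in the longest annotated transcript, 71.3% of the 100-base windows of Flg, 67.3% of Hrnr and 55.5% of Flg2 occur more than once, against 2.43% for Tchh and 0% for the other 6. The labels do not say how reads from inside such repeats were counted.

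As a share of the TMM-scaled library size, the 10 together made up 0.424 ± 0.028% in WT control and 0.784 ± 0.117% in WT UVB, and 0.428 ± 0.0852% in KO control and 0.787 ± 0.285% in KO UVB (SD, n = 4). Within that sum, Flg went from 2.05 to 17.3% in WT and from 2.83 to 17.1% in KO. Flg2 went from 19.8 to 11% in WT and from 25.6 to 8.42% in KO. Tchh held 22.4% of the reads of the 10 in WT control and 2.71% in KO control, and 0.365% in WT UVB (1.003% in the highest library) and 0.135% in KO UVB.

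The libraries held 15644375 to 23200649 reads in genes. Tnfrsf1a, which codes for TNF receptor 1, was at 133 to 148 CPM in WT control, 140 to 162 in WT UVB, 82.2 to 93.9 in KO control and 89.3 to 105 in KO UVB, and Tnfrsf1b at 44.4 to 69.6, 33.6 to 51.7, 16.4 to 24.9 and 15.6 to 27.9 CPM. Both were lower in every KO library than in every WT library, with reads left in all. The epidermal keratin Krt10 was at 2604 CPM or more in each library and the dermal collagen Col1a1 at 8241 CPM or more, as whole skin has. Genes of the growing hair follicle varied with the groups and are given with Tchh. Neutrophil genes (summed over 7) were highest in KO UVB library 3, at 374 CPM against 10.7 to 53.5 in the control and WT UVB libraries. After UVB in WT, 0 of 6 fibroblast markers were called, 1 of 6 muscle markers fell, 0 of 5 adipocyte markers were called and 2 of 6 sebaceous gland markers rose.

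UVB against control in WT moved most of the 10. The test was passed by 9 (edgeR quasi-likelihood, Benjamini-Hochberg adjusted p under 0.05), where 18.8% of all genes tested did. Of these, 6 rose (Flg, Hrnr, Rptn, Lor, Ivl, Kprp; 10.2% of all genes rose) and 3 fell (Tchh, Tchhl1, Crnn; 8.6% of all genes fell). In those 9 the CPM of the groups did not overlap, as in 28.2% of all genes. The median log2 fold change of the 10 was 1.16, and that of all genes −0.03. In whole skin, fewer or more cells of a type and less or more RNA per cell cannot be told apart.

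**Figure D1:**
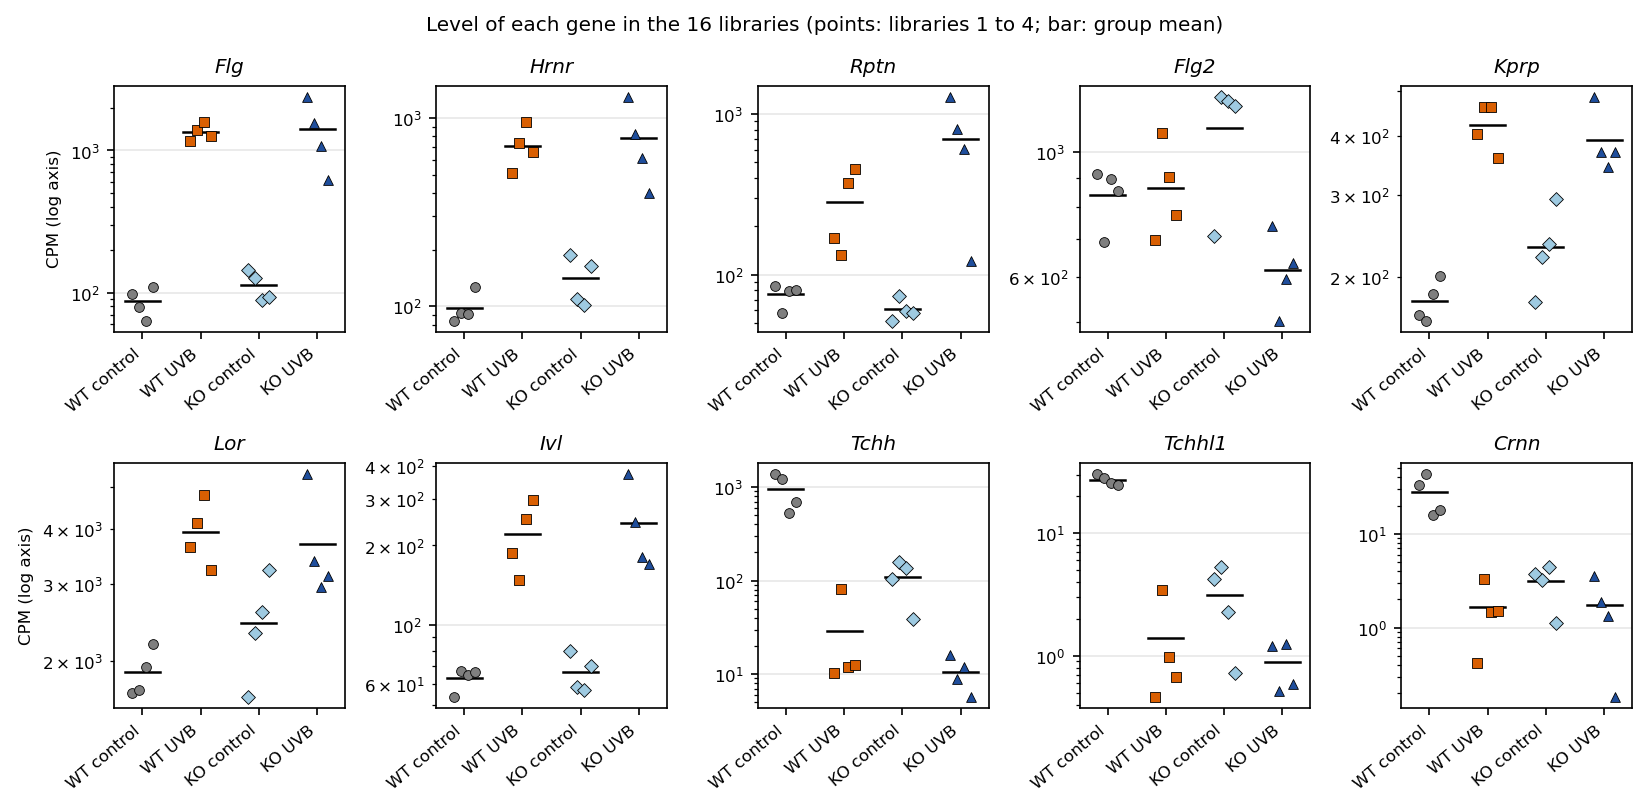
CPM of each of the 10 genes (vertical axes, log scale, different in each panel) in the 16 libraries; each point is 1 library, ordered 1 to 4 within its group, and bars are group means. Flg lies between 63.7 and 109 CPM in the 4 WT control libraries and between 1174 and 1585 in the 4 WT UVB libraries, while Tchh goes from 534 to 1393 down to 10.3 to 82.1.

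Flg, the gene of profilaggrin, had 97.8, 79.4, 63.7 and 109 CPM in the 4 WT control libraries and 1174, 1395, 1585 and 1261 CPM in the 4 WT UVB libraries. Every UVB library was more than 10 times the highest control, and the libraries within each group lay close together. The log2 fold change was 3.95 ± 0.34 (SE; 95% confidence interval 3.22 to 4.68; 15.5-fold; adjusted p = 6.63e-06). Hornerin (Hrnr), a repeat protein built like filaggrin, had 84.1, 92.3, 91.2 and 126 CPM in WT control and 508, 739, 947 and 655 CPM in WT UVB. The groups were far apart, and the log2 fold change was 2.85 ± 0.32 (7.23-fold; adjusted p = 4.31e-05).

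Repetin (Rptn), an envelope precursor of the same family, had 84.7, 58.1, 79.1 and 79.7 CPM in WT control and 169, 132, 372 and 454 CPM in WT UVB. Libraries 1 and 2 were nearer to the controls than libraries 3 and 4, and none overlapped with them. Rptn rose by 1.90 ± 0.51 on the log2 scale (95% confidence interval 0.81 to 3.00; adjusted p = 0.019). The call was lost without any filter on low counts (adjusted p = 0.0662) and without WT control library 2 (0.0588), WT UVB library 3 (0.0514) or WT UVB library 4 (0.0617), within a range of 0.000441 to 0.0662 over the alternatives.

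Filaggrin-2 (Flg2) is the fused S100 member with a structure and place in the epidermis much like those of filaggrin. It was the member without a call in WT, with 915, 694, 896 and 853 CPM in WT control and 698, 1082, 906 and 773 CPM in WT UVB. The groups overlapped over most of their range. The log2 fold change of 0.04 ± 0.19 had a 95% confidence interval of −0.35 to 0.44 (adjusted p = 0.896), whose upper bound is far below the change of Flg.

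Of the envelope proteins, involucrin (Ivl), an early scaffold of the envelope, had 53.5, 67.0, 64.9 and 66.6 CPM in WT control and 188, 148, 253 and 297 CPM in WT UVB. Its log2 fold change was 1.81 ± 0.25 (3.51-fold; adjusted p = 0.000168). Loricrin (Lor) had 1691, 1721, 1937 and 2191 CPM in WT control and 3643, 4131, 4805 and 3224 CPM in WT UVB. All 4 UVB libraries of both genes lay above all 4 controls, and Lor rose by 1.07 ± 0.22 on the log2 scale (2.10-fold; adjusted p = 0.00362). Kprp, the keratinocyte proline-rich protein, had 166, 162, 184 and 201 CPM in WT control and 404, 463, 461 and 360 CPM in WT UVB. It was the tightest of the 3 around its group means, and rose by 1.25 ± 0.15 (2.37-fold; adjusted p = 6.01e-05).

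Trichohyalin (Tchh) had 1393, 1230, 534 and 690 CPM in WT control and 10.3, 82.1, 12.1 and 12.4 CPM in WT UVB. WT UVB library 2 stood above the other 3, and all 4 were below every control. Tchh fell by 5.04 ± 0.73 on the log2 scale (32.9-fold lower; adjusted p = 0.00032), and without WT UVB library 2 the log2 fold change was −6.36. Its neighbour Tchhl1, the trichohyalin-like gene, had 30.5, 28.1, 25.6 and 24.7 CPM in WT control and 0.461, 3.46, 0.969 and 0.667 CPM in WT UVB. The same library 2 was highest, and the log2 fold change of −4.28 ± 0.56 (adjusted p = 0.000129) became −5.26 without it. Crnn, whose product cornulin is best known from the squamous lining of the mouth and oesophagus, had 33.3, 43.9, 15.9 and 18 CPM in WT control and 0.415, 3.27, 1.45 and 1.5 CPM in WT UVB. No library overlapped between the groups, and Crnn fell by 4.06 ± 0.64 on the log2 scale (adjusted p = 0.000532).

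The summed CPM of 22 further genes of the inner root sheath and growing hair moved along with these 3 members. It was 781 to 2084 in WT control, 38.4 to 145 in WT UVB with library 2 the highest, 85.9 to 222 in KO control and 28.7 to 46.3 in KO UVB. In WT, 21 of the 22 fell after UVB and 0 rose, with a median log2 fold change of −5.15. Krt71, an inner root sheath keratin, was at 281 to 741 CPM in WT control and 0.339 to 41.6 in WT UVB. Markers of oral and forestomach epithelium, the other lining in which Crnn is known, summed to 20.4 to 26.8, 12.8 to 15, 14.4 to 20.6 and 9.5 to 17.5 CPM in WT control, WT UVB, KO control and, last, KO UVB. Of these, Krt13 was under 1 CPM in every library (at most 0.747) and Krt76 was at 0 in all but WT control, where it reached 0.0447 CPM. The summed hair genes were highest in WT control, although the labels give telogen for every group. Whether the hair cycle stage differed between groups was not tested. Nor was the part of the hair follicle in the results for Tchh, Tchhl1 and Crnn.

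**Figure D2:**
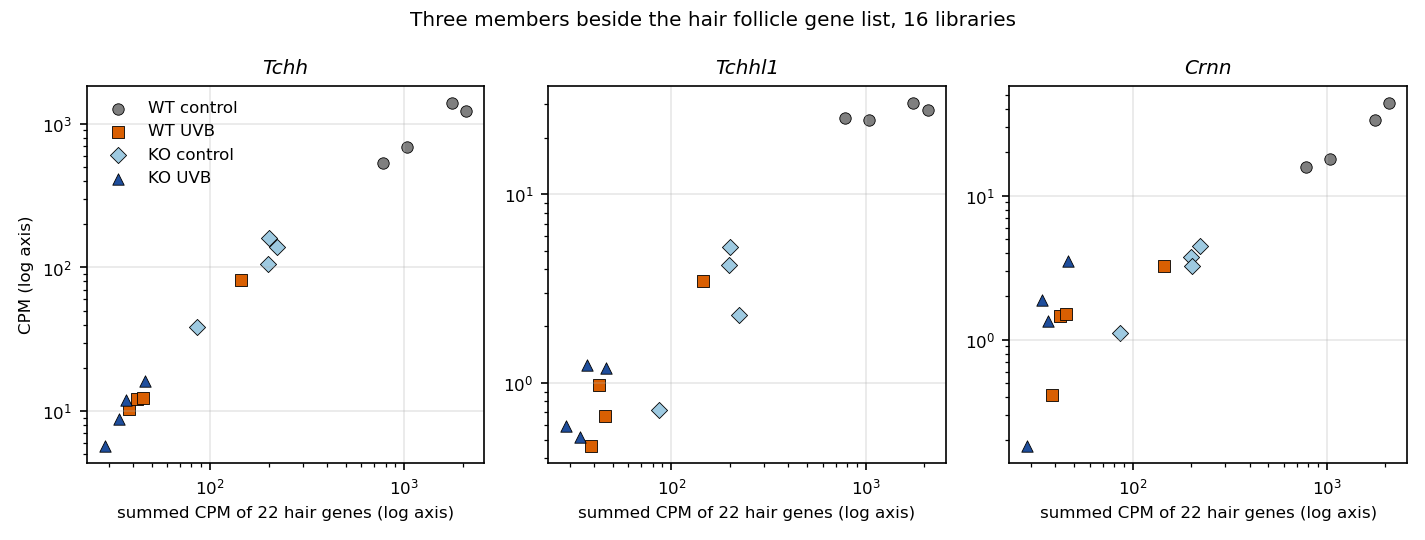
CPM of Tchh, Tchhl1 and Crnn (vertical axes, log scale) against the summed CPM of 22 hair follicle genes (horizontal axes, log scale); each point is 1 of the 16 libraries. The 4 WT control libraries lie apart at the upper right in each panel (summed hair genes 781 to 2084 CPM), and WT UVB library 2 lies among or near the KO control libraries at 145 CPM.

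The unequal rises within the family were also measured as ratios of read counts inside each library, which do not depend on library scaling. In WT, the count ratio of Flg to Lor was 0.0329 to 0.0578 in control and 0.322 to 0.391 in UVB libraries, a 7.53-fold rise (log2 difference 2.91; 2-sided exact permutation test, p = 0.0286, adjusted over 6 tests 0.0343). In KO it was 0.0291 to 0.0874 and 0.198 to 0.463, a 7.49-fold rise (exact permutation p = 0.0286, adjusted 0.0343). With 4 against 4 libraries 0.0286 is the smallest p this test can give. Flg gained on Lor in both genotypes, and whether the gain differs between them was not tested for ratios.

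The ratio of Flg to Flg2 turned over. Flg2 had the larger count in all 8 control libraries, with ratios of 0.0711 to 0.128 in WT and 0.0715 to 0.204 in KO. After UVB the ratio was 1.29 to 1.75 in WT and 0.977 to 3.21 in KO, so Flg had the larger count in 7 of the 8 UVB libraries. The log2 differences were 3.94 and 4.31 (exact permutation p = 0.0286, adjusted 0.0343, in each). Ivl gained on Lor by 1.22 on the log2 scale in KO without overlap (exact permutation p = 0.0286, adjusted 0.0343), and the 0.71 in WT overlapped between groups (exact permutation p = 0.0571, adjusted 0.0571).

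**Figure D3:**
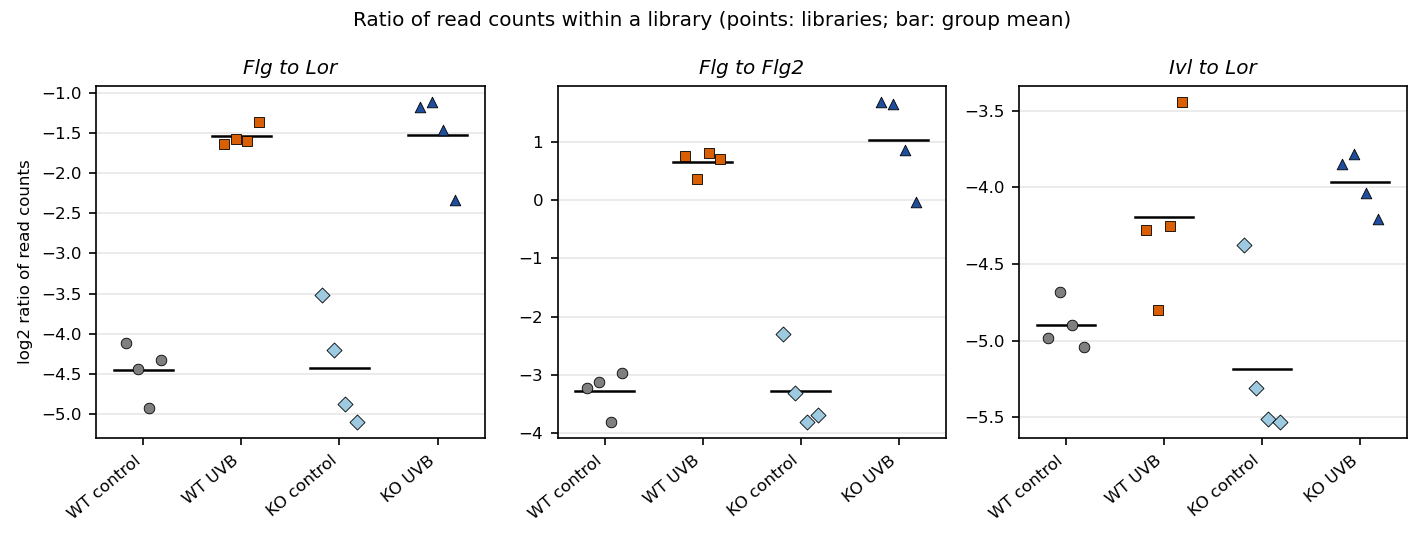
Log2 ratio of read counts inside each library (vertical axes) for Flg to Lor, Flg to Flg2 and Ivl to Lor; points are the 4 libraries of each group and bars are group means. For the first 2 ratios all UVB libraries lie above all controls of their genotype, with mean log2 differences of 2.91 and 2.90 for Flg to Lor in WT and KO.

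UVB against control in KO gave 9 calls among the 10, where 32.3% of all genes were called: the same 6 genes rose as in WT (17.2% of all genes rose) and Flg2, Tchh and Tchhl1 fell (15.1% of all genes fell). Groups did not overlap for 6 of the 10, as in 25.1% of all genes. The median log2 fold change of the 10 was 0.68, against −0.02 for all genes. Both genotypes have their own controls here, so the groups compared share no library with those of WT. Scaling and spread were estimated over all 16 libraries together, so the p-values and calls are not independent of the WT libraries. Markers of other tissue moved in the same comparison: 2 of 6 fibroblast and 5 of 6 muscle markers fell and 0 rose, 3 of 6 sebaceous gland markers rose and 1 fell, and 0 of 5 adipocyte markers were called. The summed fibroblast markers were at 54034 to 58387 CPM in KO control and 31002 to 39740 in KO UVB, and the muscle markers at 16307 to 27522 and 6927 to 13211, without overlap in either. In WT both sums overlapped between control and UVB. Their part in the values of the members was not tested.

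Flg had 145, 126, 88.4 and 94.0 CPM in KO control and 2370, 1570, 1074 and 621 CPM in KO UVB. The spread after UVB was wider than in WT, with library 1 highest and library 4 lowest, and no overlap with controls. Flg rose by 3.64 ± 0.34 on the log2 scale (12.4-fold; adjusted p = 8.76e-06). Hrnr had 188, 110, 102 and 164 CPM in KO control and 1288, 826, 614 and 398 CPM in KO UVB. The same libraries were highest and lowest, and the log2 fold change was 2.47 ± 0.32 (5.55-fold; adjusted p = 9.08e-05).

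Rptn had 51.9, 73.8, 59.7 and 57.7 CPM in KO control and 1272, 809, 603 and 121 CPM in KO UVB. Libraries 1 to 3 of KO UVB were above every WT UVB library, and library 4 was below all of those. Rptn rose by 3.53 ± 0.55 (11.5-fold; adjusted p = 0.000373). The summed CPM of 12 suprabasal keratin and desmosome genes ran the same way across the KO UVB libraries, highest in library 1 at 51582 and lowest in library 4 at 17976, against 10687 to 17911 in KO control. Its part in the spread of Flg, Hrnr and Rptn was not tested.

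Flg2 fell in KO. It had 711, 1254, 1236 and 1210 CPM in KO control and 739, 502, 596 and 635 CPM in KO UVB. KO control library 1 stood below the other 3 controls and inside the range of the UVB libraries. The log2 fold change was −0.84 ± 0.19 (95% confidence interval −1.23 to −0.44; adjusted p = 0.00349). This call was kept under all 26 alternatives tried.

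Of the envelope genes, Ivl had 79.9, 58.3, 57.0 and 69.8 CPM in KO control and 374, 246, 180 and 170 CPM in KO UVB, a log2 fold change of 1.87 ± 0.25 (adjusted p = 0.000109). Kprp had 177, 221, 236 and 295 CPM in KO control and 485, 371, 345 and 371 CPM in KO UVB. Both genes were higher in every UVB library, and Kprp rose by 0.76 ± 0.15 (1.69-fold; adjusted p = 0.00148). Lor had 1657, 2317, 2597 and 3232 CPM in KO control and 5364, 3390, 2953 and 3132 CPM in KO UVB. The groups overlapped, and the rise of 0.60 ± 0.22 (1.51-fold; adjusted p = 0.0471) was lost under 14 of 26 alternatives, with a range of adjusted p from 0.0174 to 0.172. Without KO UVB library 1 it was 0.37 (adjusted p = 0.172), and with the replicate number as a block its adjusted p was 0.0787.

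Tchh had 105, 160, 138 and 38.6 CPM in KO control and 16.1, 8.79, 11.9 and 5.69 CPM in KO UVB, without overlap, and fell by 3.38 ± 0.69 on the log2 scale (10.4-fold lower; adjusted p = 0.00232). Tchhl1 had 4.23, 5.26, 2.29 and 0.721 CPM in KO control and 1.19, 0.513, 1.25 and 0.592 CPM in KO UVB. Library 4 of the controls lay among the UVB libraries. The log2 fold change was −1.82 ± 0.59 (adjusted p = 0.0285), and the call was lost without a filter on low counts (0.0947) and without KO control library 1 (0.0663) or 2 (0.104) or KO UVB library 2 (0.0744) or 4 (0.07), in a range of 0.00826 to 0.104. Crnn had 3.74, 3.26, 4.47 and 1.11 CPM in KO control and 3.53, 1.88, 1.34 and 0.182 CPM in KO UVB, with overlap. Its log2 fold change of −0.88 ± 0.64 did not pass the test (95% confidence interval −2.24 to 0.48; adjusted p = 0.311). Of the 22 hair genes, 20 fell after UVB in KO, with a median log2 fold change of −4.52.

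**Figure D4:**
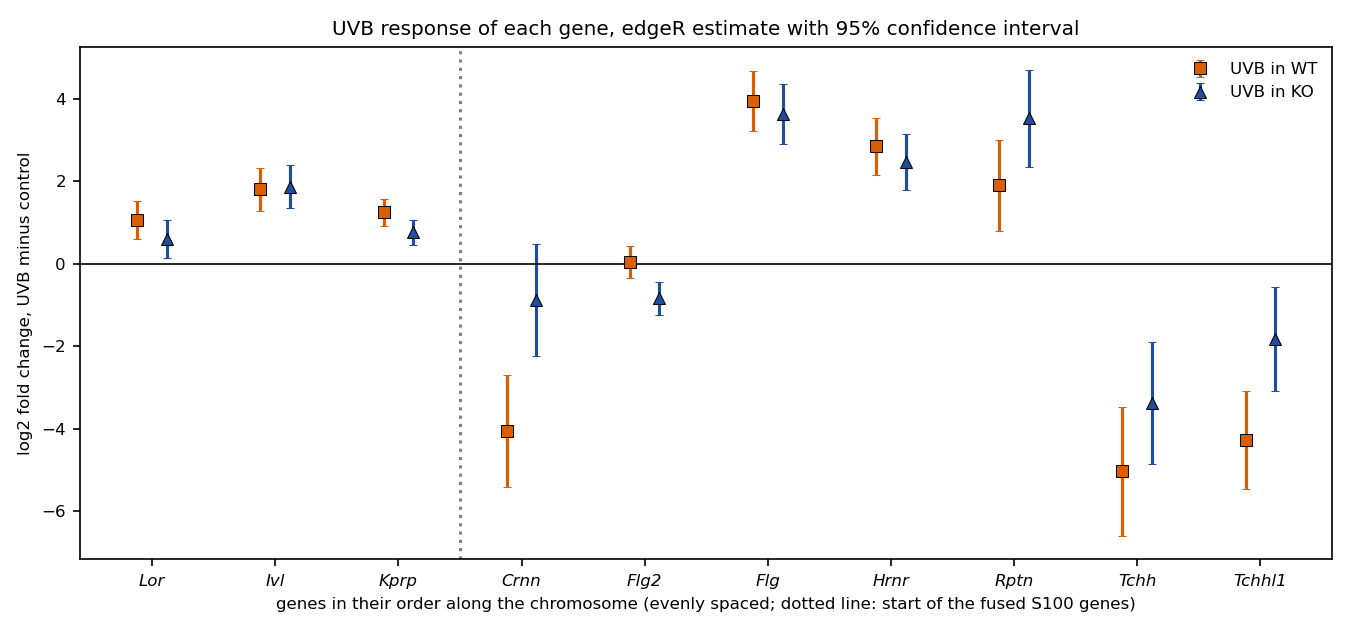
Log2 fold change of UVB against control (vertical axis) for the 10 genes in their order on the chromosome (horizontal axis, evenly spaced), in WT (squares) and KO (triangles); bars are 95% confidence intervals of the edgeR estimate. Flg, Hrnr and Rptn, which lie next to each other, are above 0 in both genotypes, Tchh and Tchhl1 beside them are below 0, and Flg2 is at 0.04 in WT and −0.84 in KO.

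KO against WT without UVB called 3 of the 10, all lower in KO, where 1.69% of all genes were called (1.28% lower, 0.416% higher). They were the 3 members that also fell after UVB in WT: Tchh, Tchhl1 and Crnn, each without overlap between the groups, as in 7.68% of all genes. WT control libraries enter both comparisons. Tchh was lower in KO by 8.70-fold (log2 −3.12 ± 0.67; adjusted p = 0.0251), Tchhl1 by 8.58-fold (−3.10 ± 0.52; adjusted p = 0.00521) and Crnn by 8.76-fold (−3.13 ± 0.60; adjusted p = 0.0134). Of the 22 hair genes, 16 were lower in KO in the same comparison and 0 higher, with a median log2 difference of −3.05.

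Among these 3, the Tchhl1 call was kept under all 26 alternatives. For Tchh it was lost without a filter on low counts (adjusted p = 0.1) and without WT control library 1 (0.0711) or 2 (0.0718) or KO control library 1 (0.0818), 2 (0.0519), 3 (0.065) or 4 (0.0777), in a range of 0.000446 to 0.1. For Crnn it was lost without a filter (0.0582) and without WT control library 2 (0.0505) or KO control library 4 (0.0513), in a range of 0.00123 to 0.0582. The other 7 members did not pass the test: Flg differed by 0.37 ± 0.31 (adjusted p = 0.76), Hrnr by 0.52 ± 0.30 (0.61), Flg2 by 0.39 ± 0.19 (0.457), Rptn by −0.31 ± 0.50 (0.906), Lor by 0.38 ± 0.22 (0.592), Ivl by 0.07 ± 0.24 (0.963) and Kprp by 0.38 ± 0.15 (0.309). The median log2 difference of the 10 was 0.22, against 0.00 for all genes.

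KO against WT with UVB called 0 of the 10 with edgeR and 0 with DESeq2. Of all genes, edgeR called 0.856% (0.496% higher and 0.359% lower in KO). At an unadjusted p under 0.05 edgeR had 3 of the 10, and the share of all genes at that threshold was not worked out. All 10 overlapped between the groups, and 8.16% of all genes did not. limma voom with sample quality weights called 1, Flg2, lower in KO by 0.61 on the log2 scale (adjusted p = 0.0253). The edgeR value for Flg2 was −0.48 ± 0.19 (95% confidence interval −0.88 to −0.09; adjusted p = 0.21, in a range of 0.0253 to 0.506 over the alternatives). For Flg the difference was 0.06 ± 0.30 with an interval of −0.59 to 0.70 (adjusted p = 0.946). Rptn was 1.31 ± 0.50 higher in KO (interval 0.24 to 2.39; adjusted p = 0.211, in a range of 0.0277 to 0.449 over the alternatives), and 1.68 (adjusted p = 0.0277) without KO UVB library 4. With both KO UVB library 4 and WT UVB library 2 left out it was 1.44 (adjusted p = 0.0555). The remaining 7 had estimates between −1.46 (Tchh) and 0.13 (Hrnr and Ivl).

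The interaction, which subtracts the UVB response of WT from that of KO, tests whether the responses differed. It called 0 of the 10 with edgeR, 0 with DESeq2 and 1 with voom (Flg2, −1.11, adjusted p = 0.0232). Of all genes, edgeR called 0.0228% (0.0171% positive, 0.0057% negative). At an unadjusted p under 0.05 edgeR had 5 of the 10. The share of all genes at that unadjusted threshold was not worked out, so 0.0228% is no measure for the 5. For Flg2 the edgeR estimate was −0.88 ± 0.26 (95% confidence interval −1.44 to −0.32; adjusted p = 0.211, in a range of 0.0232 to 0.372), so the fall in KO beside the flat value in WT was not called as a difference by edgeR. Crnn gave 3.18 ± 0.89 (interval 1.28 to 5.07; adjusted p = 0.195), Tchhl1 2.46 ± 0.81 (0.242), Tchh 1.66 ± 0.90 (0.456) and Rptn 1.63 ± 0.71 (0.355). These 4 have the largest estimates, and their intervals are wide. Flg (−0.32 ± 0.43; interval −1.23 to 0.60; adjusted p = 0.795), Hrnr (−0.38 ± 0.43; 0.745) and Ivl (0.06 ± 0.34; 0.957) were not called either. Nor were Kprp (−0.49 ± 0.21; interval −0.93 to −0.04; adjusted p = 0.345), which is among the 5 at an unadjusted p under 0.05, and Lor (−0.47 ± 0.31; interval −1.12 to 0.19; 0.542). Intervals of this width do not show equal responses.

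To place the members among other genes, the nearest profiles were found by the root mean square difference of centred log2 CPM over the 16 libraries, among 13024 genes. Nearest to Flg were Krt1, a suprabasal keratin (0.42), Casp14, the caspase that takes part in filaggrin breakdown (0.449), Lce1e, a late envelope gene (0.46), and Rgn (0.471), where the spread of Flg itself was 1.92 on that scale. Ivl lay nearest to Asprv1, the skin aspartic protease that cleaves profilaggrin (0.182), then Sdcbp2 (0.219), Blmh, a hydrolase of the last step of filaggrin breakdown (0.231), and Gsto1 (0.234). Nearest to Lor were Fam89a (0.118), Fam57a (0.119), Dmkn (0.122) and Tmem79 (0.145). Tchh lay nearest to Calhm4 (0.409), the hair keratin-associated gene Krtap4-2 (0.44), the hair keratin Krt83 (0.457) and Gprc5d (0.458). Among the members themselves the closest pair was Lor and Kprp (0.137), Flg was closest to Hrnr (0.615), and Flg stood 2.13 from its neighbour Flg2. The libraries of 1 group share their treatment, so likeness here includes likeness of group means. The difference also grows with a gene's own spread, which was 0.951 for Ivl, 0.514 for Lor and 2.64 for Tchh. Differences are therefore not comparable between genes of unlike spread, which holds for the closest pair too.

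Genes that act on these proteins were counted from lists. Over all genes tested, 10.2% rose and 8.6% fell after UVB in WT, and 17.2% rose and 15.1% fell in KO. Of 18 genes of filaggrin processing and cross-linking, 11 rose and 1 fell after UVB in WT (median log2 fold change 0.92) and 11 rose and 1 fell in KO (0.80). Casp14 rose by 3.25 ± 0.33 in WT, Blmh by 1.90 ± 0.19 and Klk5, a protease of the cornified layer, by 1.54 ± 0.16. The gene that fell in WT was Padi3, which citrullinates trichohyalin and filaggrin and is also in the hair list: 13.6 to 37.6 CPM in WT control and 0.323 to 2.04 in WT UVB. Without UVB, 2 of the 18 were lower in KO than in WT and 0 higher, Padi1 and Padi3, both deiminases.

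Of 43 other envelope precursor genes (the late cornified envelope and small proline-rich genes among them), 38 were tested: 26 rose and 0 fell in WT (median 2.00) and 33 rose and 0 fell in KO (2.35). Lce1e rose by 3.36 in WT, Lce1f by 3.36 and Lce1h by 2.79. None was called between genotypes without UVB, and 2 were higher in KO with UVB (0.496% of all genes were), Lce3a and Lce3b. Both were near 0 in WT UVB, Lce3a at 0.0474 to 0.388 CPM and Lce3b at 0 to 0.508. In KO UVB they spread widely, over 0.956 to 10.4 and 1.18 to 11.5 CPM. Of 12 suprabasal keratin and desmosome genes, 8 rose and 0 fell in WT (median 0.91), and 8 rose and 1 fell in KO (0.71). Krt1 rose by 3.63 in WT and Dsc1, a desmosomal cadherin of the upper epidermis, by 1.52. Krt2, a keratin of the upper epidermis, rose by 5.38 in WT and was lower in KO than in WT with UVB, at 1.24 to 8.44 CPM in KO UVB against 29.5 to 64.5 in WT UVB (log2 −3.46; adjusted p = 0.00121).

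Of 22 regulators of epidermal differentiation, 6 rose and 2 fell in WT (median 0.22) and 6 rose and 4 fell in KO (0.08). Grhl3 rose by 1.03, Prdm1 by 0.67 and Hopx by 0.50 in WT, and the 2 that fell were Maf (−0.52) and Arnt (−0.27). The falls stand beside 8.6% of all genes in WT and 15.1% in KO. Of 12 single S100 genes, which share the calcium-binding domain of the fused family, 3 rose and 2 fell in WT (median 0.39) and 6 rose and 1 fell in KO (0.49). S100a14 rose by 0.91 and S100a16 by 0.79 in WT, and S100a3, a hair cuticle gene, fell by 4.45. Among those that rose in KO were S100a8 and S100a9, which are also in the neutrophil list. They spread over 6.52 to 112 and 13.2 to 167 CPM in KO UVB. The part of neutrophils in these rises was not tested. Of 10 basal keratinocyte genes, 2 rose (Krt5 by 0.98 and Krt14 by 1.54) and 1 fell (Krt15, −0.65) in WT, with a median of 0.08 in both genotypes.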

How the data were processed

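RNA of 16 whole skin samples was sequenced as poly(A)-enriched directional libraries, per the labels' protocols. GRCm39 and STAR are named in the submitters' processing notes, without version or annotation. The deposited values are raw read counts per gene in 3 columns, unstranded and for each strand, and the reverse-strand column (95.74% of stranded reads) was used. Summary lines for unmapped (10.7 to 19.5%), no-feature (7.25 to 10.2%) and ambiguous (1.18 to 1.42%) reads were left out, and the line for multimapping reads holds 0. A further deposited table has 17 value columns without sample names, not used here. Names, gene order and transcripts came from GENCODE vM21 (52083 of 55359 IDs named), promoters from RefSeq GRCm38.p6.

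The test was edgeR's (4.0.16, in R 4.3.3) robust quasi-likelihood fit after TMM scaling and filterByExpr, as 1 model of 4 groups, with Benjamini-Hochberg adjustment over 17531 genes and a threshold of 0.05. The standard error is that implied by the test. Confidence intervals are at 95%. Ratios were tested by 2-sided exact permutation over libraries (scipy 1.17.1). Alternatives were DESeq2 1.42.0, limma 3.58.1 voom with sample weights, other size factors, other filters, unstranded counts, the 2 groups alone, a replicate block, and leaving out libraries. The code was tested on simulated data. Labels name no batch. Libraries of a group differed beyond counting noise in all 24 pairs.

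The 10 genes, the lists and the tests were chosen with earlier results of these data known. Named genes are the 10, both receptor genes, up to 3 others of each list with the smallest adjusted p in WT, and the 4 nearest profiles of Flg, Lor, Ivl and Tchh with a mean count of at least 50. Krt10, Krt71, Krt13, Krt76, Col1a1, Padi1, Lce3a, Lce3b, S100a8, S100a9, Maf, Arnt and, with UVB between genotypes, Krt2 were named after their values were seen.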

Additional observations from a re-analysis of the deposited data

Results flagged for a closer look

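In 4 of the 52 groups of 4 libraries examined, 1 library lay far from the other 3 (Dixon's 95% criterion, which chance meets in about 1 of 20 groups). Flg2 was at 711 CPM in KO control library 1, where the others were at 1210 to 1254. In WT UVB library 2, Tchh was at 82.1 CPM (others 10.3 to 12.4) and Tchhl1 at 3.46 CPM (others 0.461 to 0.969). Ivl was at 53.5 CPM in WT control library 1 (others 64.9 to 67.0).

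The main comparisons leave out reads on the strand opposite to the gene, which enter only the alternative with unstranded counts. Such reads made up a larger share of a member's reads in UVB than in every control library in 4 cases. For Hrnr in WT the share averaged 0.807% after UVB (0.524 to 1.33%, controls 0.201 to 0.353%). For Tchh it averaged 3.11% in WT (1.14 to 5.91%, controls 0.482 to 0.691%) and 4.2% in KO (2.71 to 5.17%, controls 0.614 to 2.38%). The opposite-strand reads of Tchh were themselves fewer after UVB in WT, 6 to 20 reads a library against 81 to 184 in control, so the larger share goes with fewer sense reads. For Lor in WT it averaged 0.226% (0.145 to 0.450%, controls 0.0612 to 0.115%). Over all genes the share also lay higher in every WT UVB library (4.24 to 5.25%) than in every WT control library (3.91 to 4.18%), and it overlapped in KO (3.91 to 4.32% in control, 4.14 to 4.52% with UVB). Its part in these values was not tested.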

How the results depend on the processing

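Of the 50 member values (10 genes in 5 comparisons), 32 kept their direction and their side of the threshold under all alternatives run (26, and 25 for the interaction). Of the 21 called, 16 stayed called under all and none changed sign; the exceptions are given with Rptn, Tchhl1, Lor, Tchh and Crnn. The number of members called between genotypes without UVB was 1 with no filter and 1 to 3 with 1 library left out. With UVB it was 1 under voom and 0 to 1 with 1 library left out, and for the interaction it was 1 under voom. Over all genes the calls ranged from 2039 to 5100 for UVB in WT (3290 as reported), 3506 to 7508 in KO (5666), 93 to 590 between genotypes without UVB (297), 59 to 1094 with UVB (150), and 2 to 438 for the interaction (4).

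The main tests did not pair libraries by number. Deviations of same-numbered libraries from their group means correlated at −0.40 to 0.22, which cannot show whether such libraries were matched. The replicate block ended only the Lor call in KO among member calls, leaving 8. In the paired form, the log2 differences were 2.91 and 2.90 for Flg to Lor, 3.94 and 4.31 for Flg to Flg2 and, in KO, 1.22 for Ivl to Lor, each at an exact p of 0.125, the smallest that 4 pairs can give. With 1 library left out these ranged over 2.76 to 3.03 and 2.68 to 3.21, over 3.77 to 4.05 and 4.10 to 4.67, and over 1.10 to 1.48, where the test cannot go below 0.0571.

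Sign changes fell on values that were not called. Flg2 in WT was −0.050 with library totals, −0.069 without WT UVB library 2 and KO UVB library 4 together, and −0.068 to 0.15 with 1 library left out. Between genotypes without UVB, Ivl was −0.038 under voom and −0.027 to 0.14 with 1 library left out. With UVB, Crnn was −0.000965 with library totals, and Flg and Crnn were both −0.057 with the block; without the 2 libraries, Tchh was 0.091, Tchhl1 0.52 and Lor 0.017. With 1 library left out, Flg ranged from −0.33 to 0.32, Hrnr from −0.23 to 0.36, Crnn from −0.60 to 0.63, Tchhl1 from −0.95 to 0.35, Lor from −0.34 to 0.021 and Ivl from −0.17 to 0.31. The Ivl interaction ranged from −0.24 to 0.24. The cause was not tested. Low counts limit Crnn and Tchhl1, at under 6 CPM outside WT control.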
